A study of Homo sapiens with 6 samples.

Results

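The genes described here encode 10 chaperones and proteases that keep mitochondrial proteins folded or break them down. They are HSPD1 (ENSG00000144381_at), HSPE1 (ENSG00000115541_at), HSPA9 (ENSG00000113013_at), TRAP1 (ENSG00000126602_at), LONP1 (ENSG00000196365_at), CLPP (ENSG00000125656_at), YME1L1 (ENSG00000136758_at), SPG7 (ENSG00000197912_at), AFG3L2 (ENSG00000141385_at) and HTRA2 (ENSG00000115317_at). They were chosen by name for their function, by a rule that uses no measured value, although earlier results of these data were known, and all 10 were found among the 26445 probe sets of the series, each of which stands for 1 Ensembl gene identifier. The pairing of these identifiers with symbols came with the list of genes and was not checked against another table. Total RNA came from SW480, a human colorectal cancer cell line, in the form of KIAA1199-Cl.13, a single clone that carries the tetracycline repressor and a KIAA1199 construct that doxycycline switches on. Cells of both groups carry the vectors of both selection steps and were grown with blasticidin S, G418 and Tet-system-approved serum. In 3 independent experiments, RNA was taken from uninduced cells and from cells given 50 ng/ml doxycycline for 48 h, and each of the 6 samples was hybridized to an Affymetrix GeneChip with probes spread over the exons of a gene. No array of repressor-only cells with doxycycline was analysed here, so doxycycline itself and KIAA1199 cannot be told apart as the source of a difference. The paper cites earlier work as showing no effect of such concentrations on microarray transcript levels, which was not tested here.

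Most mitochondrial proteins are made in the cytosol and enter the organelle unfolded. In the matrix, the chaperone encoded by HSPA9 pulls them in, and the barrel formed by the HSPD1 protein with its lid, the HSPE1 protein, gives them a chamber in which to fold. TRAP1 is the mitochondrial relative of the cytosolic HSP90 chaperones. LONP1 and CLPP are matrix proteases that remove damaged proteins, SPG7 and AFG3L2 form ATP-dependent proteases of the inner membrane that face the matrix, YME1L1 is their counterpart facing the intermembrane space, and HTRA2 is a serine protease of that space. Chaperone and protease genes of this group are known to be raised together when unfolded protein builds up in mitochondria, a response called the mitochondrial unfolded protein response.

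HSPD1 and HSPE1 lie head to head on the same chromosome and are read in opposite directions, so their start regions are shown first. In RefSeq (GRCh38.p14), 104 bases separate the outer HSPD1 start site from the HSPE1 start site, and the promoter windows of the pair, each with 250 bases before and 50 after the start, share 204 bases. The interval at chr2:197500275-197500378 is given on the plus strand, which is the strand of HSPE1. Capitals mark CACGTG, the E-box bound by MYC and related factors, and 74.0% of the bases in the interval are G or C.
HSPD1-HSPE1 interval: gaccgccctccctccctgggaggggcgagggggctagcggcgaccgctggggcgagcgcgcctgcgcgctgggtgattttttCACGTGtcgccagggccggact
The E-box begins 22 bases before the HSPE1 start and, read on the other strand, 88 bases before the HSPD1 start. A window was found for 8 of the 10 genes, with 12 windows in all. CLPP and YME1L1 had none.

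The same letters were searched for on both strands of every window. CACGTG was present at 4 of the 8 genes, HSPD1, HSPE1, HSPA9 and LONP1. Counted by window, it was in 4 of the 12, against 7.26% of all 35116 windows of this length. HSPD1 and HSPE1 share a single copy. The stretches around it at HSPA9 (chr5:138575403-138575432, minus strand, beginning 19 bases before the start) and LONP1 (chr19:5720341-5720370 and chr19:5720178-5720207, minus strand, 212 and 49 bases before the start) are shown as the other copies of the motif in this group.
HSPA9 E-box: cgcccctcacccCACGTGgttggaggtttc
LONP1 distal E-box: ctcacagccttcCACGTGaccggaaaaggc
LONP1 proximal E-box: cgcgccgggcgtCACGTGcgtttcgcggcg
The heat shock element GAANNTTC, the core of the site bound by heat shock factors, was found at 1 of the 8 genes. It was in 1 of the 12 windows, against 6.77% of all windows. It lies before the inner start site of HSPD1 (chr2:197500061-197500090, minus strand, 240 bases before that start), on the side of the outer HSPD1 start that faces away from HSPE1, and overlaps matches to the other phase of the element, TTCNNGAA.
HSPD1 heat shock element: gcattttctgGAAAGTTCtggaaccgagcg
TTCNNGAA was present at HSPD1 and HSPA9, in 2 of the 12 windows, and in 7.74% of all windows. The element TGATGCAA, bound by CHOP and its partners, was in none (0) of the 12 windows and in 0.866% of all. CCAAT was likewise in 0 of the 12 and in 34.6% of all. GGGCGG was present at all 8 genes, in 10 of the 12 windows, and in 45.0% of all windows. Some of the 12 windows overlap, so these counts are not independent. The same GGGCGG site was counted in both SPG7 windows, and another at both HSPD1 and HSPE1. These matches describe the letters of the windows and not binding.

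All values that follow are log2 expression levels as deposited by the authors, on which a difference of 1 is a doubling of signal. Their distribution is the same on the 6 arrays, with a median of 5.66, and any pair of arrays correlated with an r between 0.984 and 0.989. Each probe set was tested with limma with the experiment as a block, following the paired test of the study's methods, and called at the limits that the study used to select genes, which ask for at least a 1.2-fold change together with an unadjusted p below 0.025. The probe set with the largest rise in the whole table, ENSG00000103888_at, measured 7.76, 7.63 and 7.90 in uninduced cells of experiments 1, 2 and 3 and 9.60, 9.23 and 9.96 with doxycycline. Its identifier could not be paired with a symbol here, and the level of KIAA1199 by name and the marker genes of SW480 were not analysed.

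Of the 10 genes, HSPE1 alone passed the study's limits in the limma fit of these values, and it fell. The study made its own selection on transcript clusters rather than on these probe sets. A call or its absence here therefore does not say which of these genes the study selected. This is 1 of 10, while 5.83% of all probe sets passed, and 8.30% of the 9965 probe sets whose mean level was at least that of the dimmest of these genes, SPG7. A count of 1 in 10 is near both shares and is not a result about the group. No gene of the group had an adjusted p under 0.05 in limma, nor did any probe set of the series (0%), whereas at an unadjusted p under 0.05 there were 1 of the 10 and 12.3% of all. The adjusted p of the 10 genes ran from 0.36 to 0.94. On average 5 genes were higher and 5 lower with doxycycline, with a median log2 fold change of -0.00067 against 0.0017 over all probe sets. Their median absolute log2 fold change was 0.074, while that of all probe sets was 0.10.

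**Figure D1:**
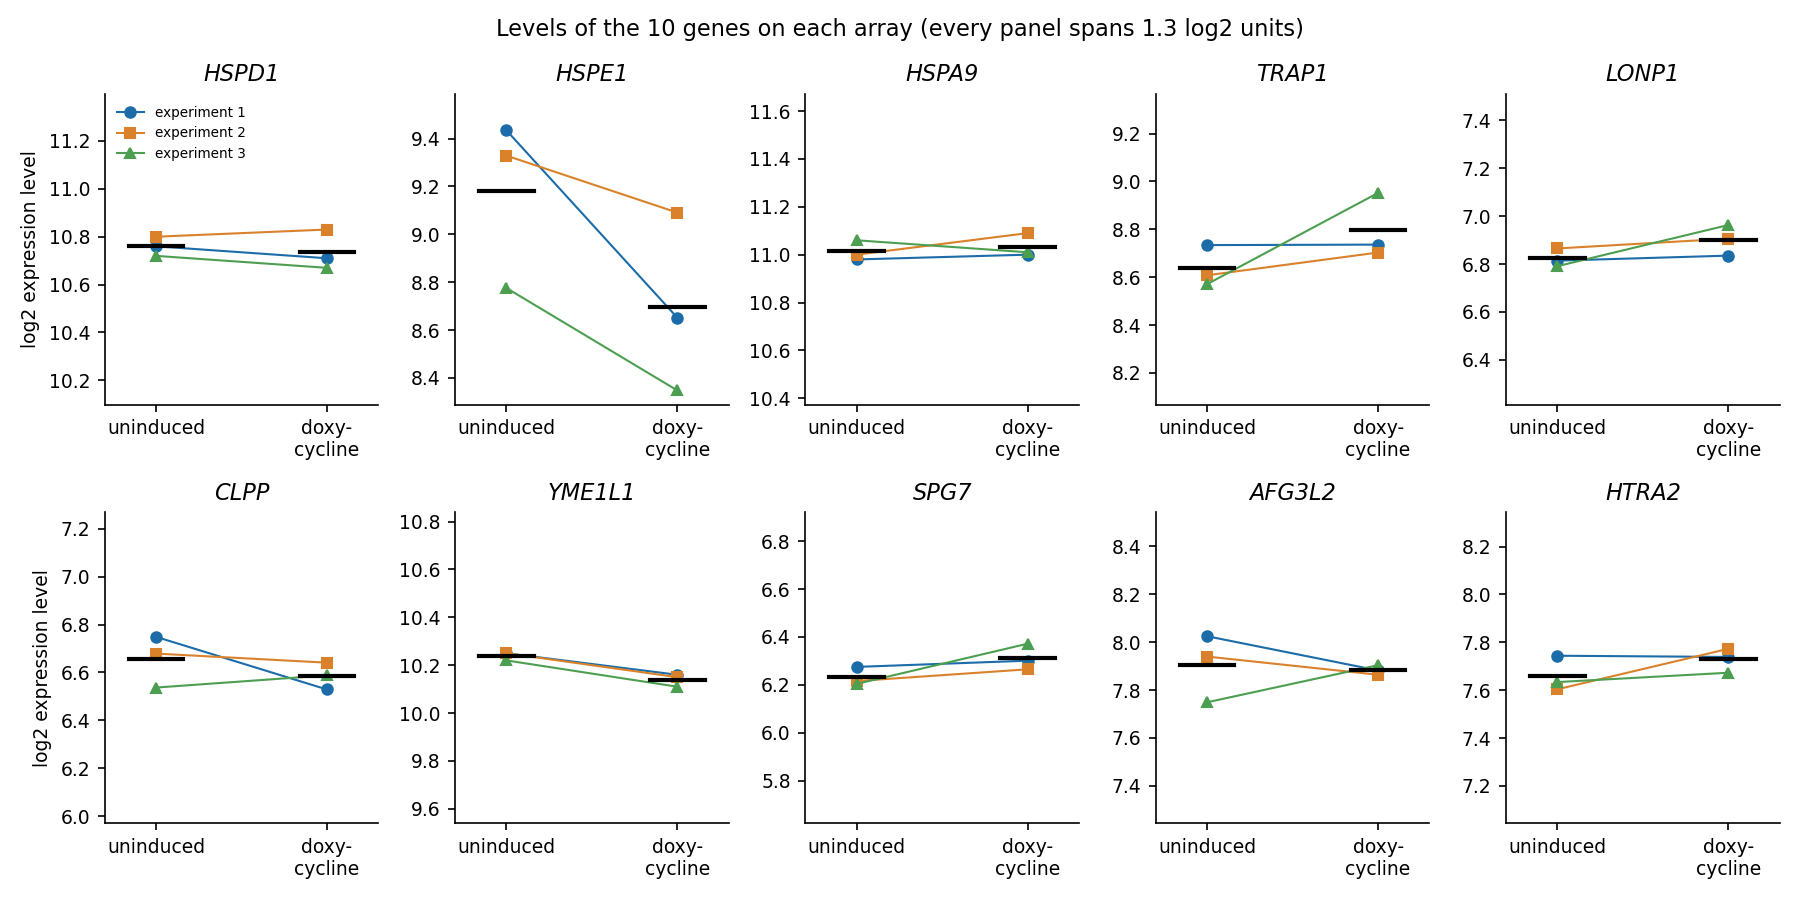
Log2 expression level of each of the 10 genes in uninduced and doxycycline-treated cells, with 1 line per experiment joining the arrays of that experiment and a black bar at each group mean (n = 3). HSPE1 falls in all 3 experiments from means of 9.18 to 8.70, and the bars of the other genes lie within 0.16 of each other.

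Among the matrix chaperones, HSPE1, the lid of the folding chamber, measured 9.44, 9.33 and 8.78 in uninduced cells of experiments 1, 2 and 3 and 8.65, 9.09 and 8.35 with doxycycline. Within every experiment the doxycycline array was the lower one, yet the groups overlapped, since the uninduced array of experiment 3 lay below the doxycycline array of experiment 2. The group means were 9.18 ± 0.35 (SD, n = 3) and 8.70 ± 0.37 (SD, n = 3), a log2 fold change of -0.48 (standard error 0.13, 95% interval -0.84 to -0.13), or 1.40-fold lower. The differences were -0.78, -0.24 and -0.43, with an unadjusted p of 0.019 and an adjusted p of 0.36 from limma. An exact sign-flip permutation test over the 3 experiments gave a two-sided p of 0.25, the smallest that 3 pairs allow.

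The call on HSPE1 rested on the pairing, on the way limma estimates the spread and on single experiments. Without the block its unadjusted p in limma was 0.095. In the methods' t-test, which is paired but takes the spread from this gene alone, it was 0.094. Leaving out experiment 1 gave a log2 fold change of -0.33 with an unadjusted p of 0.043, and leaving out experiment 3 gave -0.51 with 0.071. Each of these ended the call, while leaving out experiment 2 kept it, with -0.61 and an unadjusted p of 0.018 in limma. None of them could turn the direction, since the difference was below 0 in every experiment.

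HSPE1 also varied more between arrays of 1 group than most probe sets of its brightness. Among the 1684 probe sets with a mean level within 0.5 of its own, 0.891% had a larger SD over the uninduced arrays and 0.713% over the doxycycline arrays, where the median SDs were 0.084 and 0.086. An absolute change as large as its own was reached by 1.07% of them, and 10.5% were past the study's limits. Its change and its spread between arrays were both large for its level.

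HSPD1, the barrel that HSPE1 caps, measured 10.76, 10.80 and 10.72 in uninduced cells and 10.71, 10.83 and 10.67 with doxycycline. The groups overlapped and the differences, -0.050, 0.030 and -0.050, did not share a sign. Its log2 fold change was -0.023 (standard error 0.063, 95% interval -0.20 to 0.15); as a ratio, the interval ran from 0.872 to 1.11. On the same arrays, the change of HSPE1 minus that of HSPD1 was -0.73, -0.27 and -0.38 in experiments 1, 2 and 3, with a mean of -0.46 ± 0.24 (SD, n = 3). HSPE1 had the lower of the paired values in each experiment. The exact sign-flip permutation test of this difference, two-sided, again gave p = 0.25, the smallest possible.

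**Figure D2:**
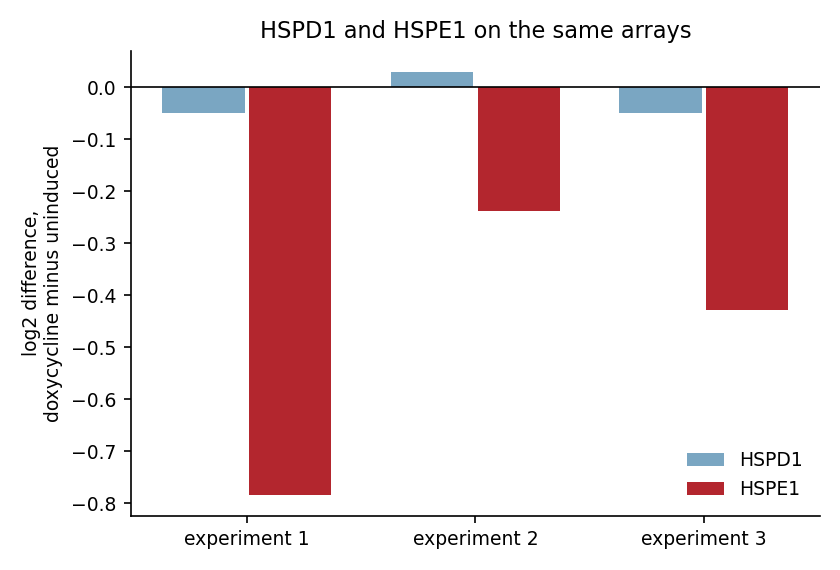
Log2 difference between the doxycycline and the uninduced array of each experiment for HSPD1 (blue) and HSPE1 (red), with bars drawn from 0. The HSPE1 bars reach -0.78, -0.24 and -0.43, and the HSPD1 bars stay between -0.050 and 0.030.

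The probe sets of this pair carry a limit of sequence. Pseudogenes were counted in the RefSeq table by name only, as the gene symbol followed by P and digits. By that count there are 28 HSPE1 pseudogenes and 22 HSPD1 pseudogenes, and the HSPE1-MOB4 readthrough gene begins at the HSPE1 start. HSPA9 has 2 pseudogenes by the same count, YME1L1 and AFG3L2 have 1 each, and the other 5 genes have none (0). Whether probes of these sets bind transcripts of such copies was not tested.

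HSPA9, the motor of protein import, was the brightest of the 10 probe sets. It measured 10.98, 11.00 and 11.06 in uninduced cells and 11.00, 11.09 and 11.01 with doxycycline. The groups overlapped, and the log2 fold change was 0.020 (standard error 0.066, 95% interval -0.16 to 0.20). TRAP1 measured 8.73, 8.61 and 8.57 in uninduced cells and 8.74, 8.70 and 8.95 with doxycycline. Its differences were all above 0, but at 0.0020, 0.095 and 0.38 they were uneven, and the groups overlapped through the uninduced array of experiment 1. Its log2 fold change of 0.16 (standard error 0.10, 95% interval -0.12 to 0.44, adjusted p = 0.59 from limma) was the highest of the group, and 32.4% of all probe sets had an absolute change at least as large.

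Of the matrix proteases, LONP1, an ATP-dependent protease that also binds mitochondrial DNA, measured 6.81, 6.86 and 6.79 in uninduced cells and 6.83, 6.91 and 6.96 with doxycycline. The array pairs differed by 0.021, 0.041 and 0.17, all in the same direction, with groups that overlapped and a log2 fold change of 0.078 (95% interval -0.11 to 0.27). CLPP, the proteolytic chamber that works with the CLPX unfoldase, measured 6.75, 6.68 and 6.54 in uninduced cells and 6.53, 6.64 and 6.59 with doxycycline. Its differences of -0.22, -0.038 and 0.051 did not share a sign, and the log2 fold change was -0.069 (95% interval -0.30 to 0.16).

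Of the inner membrane proteases, YME1L1 alone among the 10 genes had groups that did not overlap, which was so for 16.6% of all probe sets. It measured 10.25, 10.25 and 10.22 in uninduced cells and 10.16, 10.15 and 10.11 with doxycycline, a gap of 0.060 between the groups. Its log2 fold change was -0.10 (standard error 0.060, 95% interval -0.27 to 0.067), or 1.07-fold lower, which is under the fold change minimum, and its adjusted p from limma was 0.57. The differences, -0.090, -0.10 and -0.11, had an SD of 0.010, and 99.6% of all probe sets had a larger one. This SD is as small as the step of 0.01 in which levels of 10 or more are deposited. The methods' t-test, which takes the spread from this gene alone, gave an unadjusted p of 0.0033 for it, against 0.17 in limma.

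SPG7 and AFG3L2, whose proteins assemble together, both had 95% intervals that held 0, and a difference between them was not tested. SPG7 measured 6.28, 6.22 and 6.20 in uninduced cells and 6.30, 6.26 and 6.37 with doxycycline, which gave a log2 fold change of 0.081 (95% interval -0.11 to 0.27). AFG3L2 measured 8.03, 7.94 and 7.75 in uninduced cells and 7.88, 7.86 and 7.90 with doxycycline, which gave -0.021 (95% interval -0.26 to 0.22). The groups overlapped for both genes. SPG7 was the higher with doxycycline in all 3 experiments, while AFG3L2 differed by -0.14, -0.076 and 0.16. The doxycycline arrays of AFG3L2 lay close together, with an SD of 0.020, and its uninduced arrays were spread more widely, with an SD of 0.14.

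HTRA2, the protease of the intermembrane space, measured 7.74, 7.60 and 7.63 in uninduced cells and 7.74, 7.77 and 7.67 with doxycycline. The groups overlapped, and the log2 fold change was 0.068 (standard error 0.070, 95% interval -0.13 to 0.26).

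**Figure D3:**
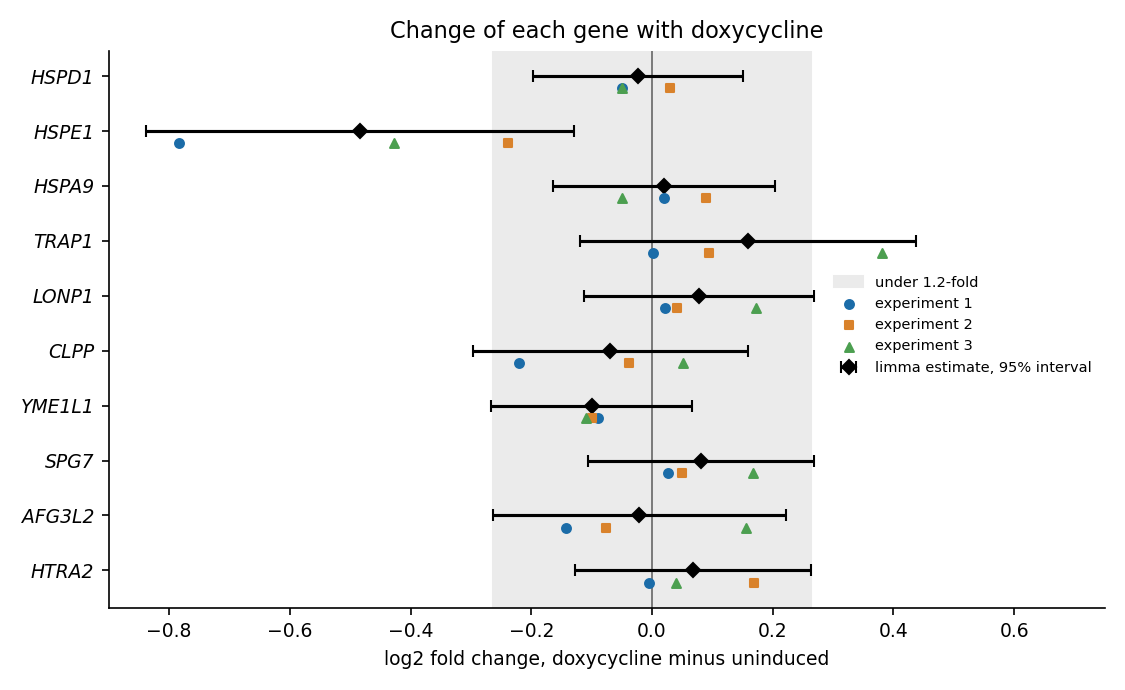
Log2 fold change of each gene (diamond, limma with the experiment as a block) with its 95% interval, and the difference in each experiment as coloured points below it. The grey band marks changes under 1.2-fold, and the interval of HSPE1 alone leaves out 0.

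The direction was the same in all 3 experiments for 5 of the 10 genes, HSPE1 and YME1L1 downward and TRAP1, LONP1 and SPG7 upward. Over all probe sets this was so for 36.5%, and the 5 genes did not share a direction. For the 9 genes other than HSPE1, the 95% intervals lay between -0.30 and 0.44 on the log2 scale, a fall of 1.23-fold and a rise of 1.35-fold, so smaller changes of single genes were not told apart from none with 3 arrays per group. The median difference of the 10 genes was -0.028 in experiment 1, 0.036 in experiment 2 and 0.045 in experiment 3, beside -0.0040, 0.0060 and 0.0070 over all probe sets. For 7 of the 10 genes the lowest of the 3 differences was that of experiment 1, against 35.9% of all probe sets. For 5 of the 10 the highest was that of experiment 3, against 34.4%. The genes were measured on the same arrays, so they are not independent counts. Whether the experiments differed was not tested.

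The mean level of each of the 10 probe sets lay above the median of all probe sets. Their levels on single arrays ran from 6.20 for SPG7 to 11.09 for HSPA9, and the mean level of SPG7 was above that of 62.3% of all probe sets and that of HSPA9 above 99.6%. The 3 differences of a gene had a median SD of 0.086 over the group and of 0.14 over all probe sets. HSPE1, TRAP1 and AFG3L2 were above the latter.

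**Figure D4:**
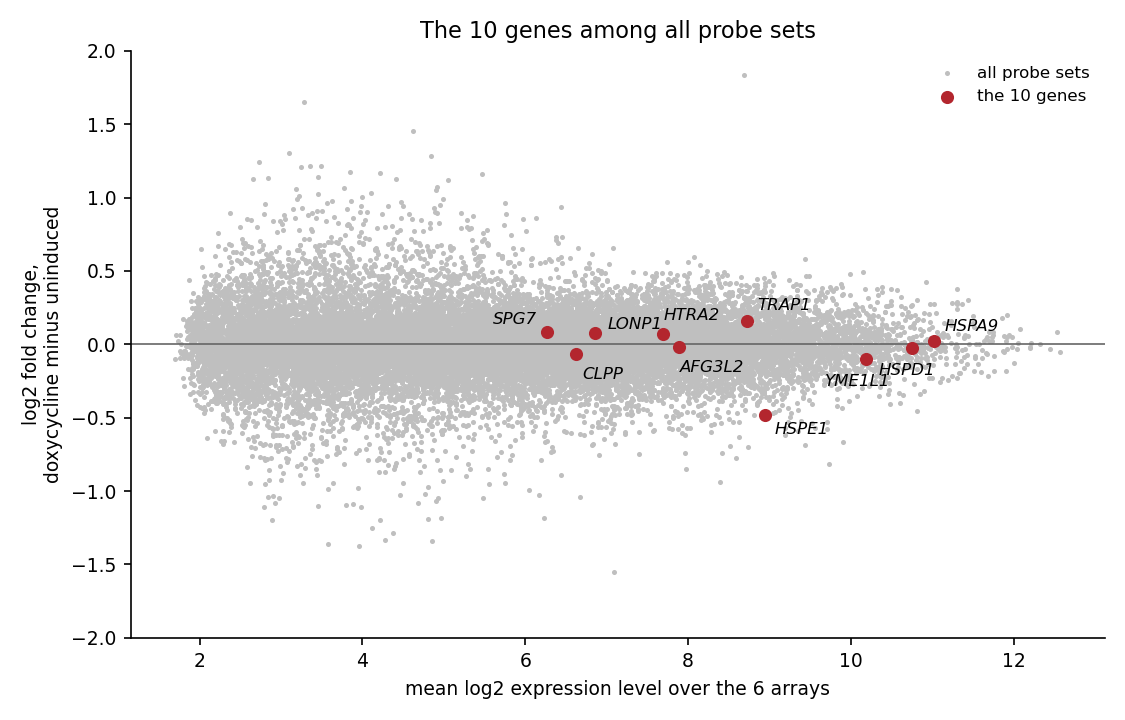
Log2 fold change (doxycycline minus uninduced) against the mean log2 level over the 6 arrays for all 26445 probe sets (grey) and the 10 genes (red). HSPE1 lies at -0.48, and the other 9 lie between -0.10 and 0.16, within the band of probe sets of their level.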

How the data were processed

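The authors deposited log2 expression levels, 1 per probe set and array. RMA is named in the submitters' processing notes, and the values share 1 distribution over the arrays. The version, genome build and probe annotation are not given in the sources used here. There were 0 missing values, no detection calls and 0 unused columns of sample values. No normalization or filter was added. Arrays were grouped and numbered from their labels. Precision is limited by 3 arrays per group. The main limma p-values measure how the doxycycline differences vary between these experiments, moderated by the spread over all probe sets. All arrays came from a single clone, so the spread between clones is not measured.

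All 26445 probe sets were fitted with limma 3.58.1 in R 4.3.3 (lmFit, eBayes, two-sided). The experiment entered as a block, and the Benjamini-Hochberg adjustment ran over the whole table. The fit was tested on simulated data whose added changes were larger than any change of the 10 genes. That test does not cover changes of their size. The genes were chosen by function, but they, the lists and the limits were set with earlier results of these data known, and all 10 genes are named. The comparison with probe sets of a similar level was added after the values were seen. The contrast of HSPE1 with HSPD1 and the promoter search were not listed among the planned comparisons either. The RefSeq table used here pairs no Ensembl identifiers with symbols, so the lists of import, stress and other chaperone genes, and the cell type markers, were not analysed here. Promoter windows came from RefSeq, GRCh38.p14, matched by symbol. The alternatives left out the block, each experiment or the dimmest 25% of probe sets, used the methods' t-test, changed the fold change minimum or the variance prior, centred the arrays, or removed the trend on level (lowess, span 0.3).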

Additional observations from a re-analysis of the deposited data

How the results depend on the processing

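The count of 1 of the 10 genes past the study's limits (HSPE1) was 0 with no replicate block, 0 in the methods' t-test, 0 with a fold change minimum of 1.5, and 0 to 1 with each experiment left out. Among all probe sets, 1543 passed, 1050 with no replicate block, 577 in the methods' t-test, 238 with the minimum of 1.5, and 986 to 1344 with an experiment left out. The cause was not tested. HSPE1 was lower with doxycycline in all 10 refits, by -0.33 to -0.61, with adjusted p-values from 0.20 to 0.62. Except for removing the trend on level, none of these refits could turn its direction. Most keep the log2 fold change and alter only its test, and the HSPE1 difference was below 0 in every experiment. Small changes turned sign without 1 experiment: HSPA9 to -0.015 without experiment 2 (0.055 without 3), CLPP to 0.0065 without experiment 1 (-0.13 without 3), and AFG3L2 to 0.040 and 0.0060 without experiment 1 or 2 (-0.11 without 3). Of 100 refitted gene values, 92 kept direction and side of the limits, but most settings leave the log2 fold change as it is and cannot turn it. The 4 values that turned sign all came from leaving out an experiment. Centring the arrays changed nothing, since they share 1 distribution, and so tests nothing.

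Deviations from the group means correlated with an r of 0.039, 0.049 and 0.13 between arrays of the same number and of -0.092 to 0.044 between arrays of other numbers. The pairing was thus weak in the values, and the block follows the study's paired test. The settings planned for the pathway lists were not run, because the listed symbols could not be matched to identifiers.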
